A study of Homo sapiens with 29 samples.

Results

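Intermediate filaments are the ropes of the cytoskeleton, and the lamins are their relatives inside the nucleus. The genes described are VIM, DES, NES, SYNM, SYNC, LMNA, LMNB1 and LMNB2, chosen by name, so 8 of the 22439 genes with a named probe on the array and 8 of the 18401 with a tested probe. Their 11 probes were found through the RefSeq accession printed for each probe, and every one of them was well above background on all 29 arrays. Each gene is given by its brightest tested probe, and the other probes of NES and LMNA are given beside it. The rule that chose the 8 genes goes by gene family and uses no measured value. It was set, like the gene lists used below, with earlier results of these data known.

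Intermediate filament proteins pair along a central coiled-coil rod and assemble into filaments that do not need ATP and have no polarity. Vimentin, the filament of mesenchymal cells and myoblasts, is replaced by desmin as muscle cells mature, and desmin then ties the Z-discs of neighbouring myofibrils to each other and to the cell membrane. Nestin, synemin and syncoilin join filaments built by vimentin or desmin rather than forming them alone. The lamins line the inner face of the nuclear envelope: LMNA gives lamin A and lamin C by alternative splicing, while LMNB1 and LMNB2 each give a B-type lamin, and a low lamin B1 level is widely used as a marker of senescent cells. ZNF148, also named ZBP-89, is a zinc finger protein that binds G-rich DNA, and the vimentin promoter is among its known targets.

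The cells were LHCN-M2, a human skeletal myoblast line immortalized with telomerase and CDK4, so a single line that carries an added cell cycle kinase in all groups. They received 20 nM ZNF148 siRNA or 20 nM nontargeting siRNA, and total RNA was hybridized to 1-colour Agilent arrays after 24 h in subconfluent growth media, after 48 or 96 h in confluent growth media, or after 48 or 96 h in confluent differentiation media. These 10 groups held 3 arrays each, except nontargeting siRNA at 96 h in growth media with 2. The labels count the hours from transfection, whereas the methods can be read as hours in the medium, so cells in the 2 media at the same hour may differ in time since transfection. The replicates are labelled as biological, but nothing says what was repeated, so the p-values measure the spread between these samples.

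On each array 41.5% to 56.5% of probes rose well above their background, and none was saturated. The 24 h cells were also subconfluent, and all 24 h arrays were on a slide and in a scan of their own. Levels at 24 h were therefore not compared with later levels, and effects of the siRNA were compared across times instead. In those comparisons of effects with 24 h, time, confluence, slide and scan still cannot be told apart. The labelled cell type was checked against its markers. Of the 8 muscle markers, 4 to 7 were above background on the arrays of nontargeting cells at 24 h, with list means of 9.07 to 9.19. Within this list MYOD1, the master regulator of the muscle lineage, had a mean log2 signal of 15.64 in nontargeting cells at 24 h, and MYF5, another regulator of that lineage, 13.62, both far above the list mean. The 2 tested glial markers had mean log2 signals between 3.03 and 4.43 on all arrays. Of the 4 endothelial markers 2 to 4 were above background and of the 4 epithelial markers 2 to 4, and of the 2 tested adipocyte markers 1 or 2. Of the 5 fibroblast markers, 4 or 5 were above background on every array, with list means from 9.29 to 10.76. On the nontargeting arrays at 24 h the fibroblast list averaged 9.29 to 9.35, above the muscle list. Replicate 1 of nontargeting siRNA at 48 h in growth media stood apart. Its muscle marker list averaged 14.62, against 10.61 for the lowest of its group. The main DES and NES values that rest on this array are given with and without it. Changes of the other genes are mostly given with it only, and those of the gene lists always. All groups share 1 estimate of the spread, so leaving this array out also moved adjusted p-values of comparisons that do not hold it.

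ZNF148 itself was lower in every group that received its siRNA. The log2 change of its brighter probe was -1.53 after 24 h in growth media, -2.07 after 48 h and -2.31 after 96 h (limma adjusted p = 4.3e-08, 7.83e-11 and 9.09e-11). In differentiation media it was -2.34 after 48 h and -2.74 after 96 h (adjusted p = 3.38e-12 and 7.49e-13). The second probe showed the same order, from -2.04 at 24 h to -2.94 at 96 h in differentiation media.

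The DNA in front of 4 of the genes is shown because ZNF148 binds G-rich sequence and because these 4 were called changed after its siRNA in at least 1 comparison and have a single listed start. Each run holds the 250 bases before the RefSeq transcription start (GRCh38.p14), read 5′ to 3′ on the strand of the gene, and capitals mark matches to GGGCGG or GGGGNGGGG on either strand, which overlap where a GC box lies inside a G run. The windows are chr10:17227991-17228240 on the plus strand for VIM, chr1:156677408-156677657 on the minus strand for NES, chr1:32702771-32703020 on the minus strand for SYNC and chr19:2456960-2457209 on the minus strand for LMNB2.
VIM: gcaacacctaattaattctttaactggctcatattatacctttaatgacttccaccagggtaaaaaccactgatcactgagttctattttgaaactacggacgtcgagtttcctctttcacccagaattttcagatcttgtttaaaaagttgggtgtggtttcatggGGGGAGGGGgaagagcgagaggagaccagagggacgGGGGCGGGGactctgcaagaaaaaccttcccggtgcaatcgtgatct
NES: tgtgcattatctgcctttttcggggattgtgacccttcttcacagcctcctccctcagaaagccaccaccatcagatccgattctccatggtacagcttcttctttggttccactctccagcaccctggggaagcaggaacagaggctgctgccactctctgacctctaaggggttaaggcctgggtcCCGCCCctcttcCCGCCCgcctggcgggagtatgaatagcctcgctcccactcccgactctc
SYNC: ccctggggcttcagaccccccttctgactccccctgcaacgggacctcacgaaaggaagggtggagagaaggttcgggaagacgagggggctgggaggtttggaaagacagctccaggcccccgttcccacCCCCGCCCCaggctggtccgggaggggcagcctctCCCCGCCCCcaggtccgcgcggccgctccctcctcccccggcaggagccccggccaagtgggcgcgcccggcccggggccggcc
LMNB2: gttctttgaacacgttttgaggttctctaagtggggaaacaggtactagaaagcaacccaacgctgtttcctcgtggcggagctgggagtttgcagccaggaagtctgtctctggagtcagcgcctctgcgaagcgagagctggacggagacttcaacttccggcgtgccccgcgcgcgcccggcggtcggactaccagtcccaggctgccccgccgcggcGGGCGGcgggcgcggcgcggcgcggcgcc

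RefSeq starts were matched for 7 of the 8 genes, with 10 windows in all. DES was not among them. The GC box GGGCGG was found in 42.6% of all 35116 windows of this length, GGGGNGGGG in 24.2% and the E-box CANNTG, a site for MYOD1 and its relatives, in 61.8%. VIM held 1 GC box, 46 bases before the start, and 2 G runs, which began 83 and 47 bases before it, and no E-box. NES held 2 GC boxes and SYNC 2, and LMNB2 held 1, which began 29 bases before the start. SYNM held 4 GC boxes, and the 3 windows of LMNA held 1, 1 and 2. LMNB1 had 2 listed starts, of which the upstream window held no GC box and the downstream window 4. G runs were not particular to VIM. SYNC held 2, which began 119 and 84 bases before the start, and the windows of LMNA held 0, 1 and 2. NES, SYNM, LMNB1 and LMNB2 held no G run. SYNM held 1 E-box and SYNC 1, and the windows of LMNA held 0, 0 and 2. The upstream window of LMNB1 held 3 E-boxes and the downstream window 1. NES and LMNB2 held no E-box. A longer G-rich box, known from the muscle enolase gene that ZNF148 also binds, was found in 2 of the 35116 windows, and in none of these genes. A match is a run of letters and not a bound site.

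A gene was called changed where the limma adjusted p was under 0.05 and the change was more than 2-fold. After ZNF148 siRNA in growth media, 2 of the 8 genes were called at 24 h, where 5.54% of all tested genes were called, 4 at 48 h (23.9%) and 5 at 96 h (24.7%). In differentiation media 4 were called at 48 h (32.4%) and 2 at 96 h (23.3%). By direction, 2.46% of all tested genes were called higher and 3.08% lower at 24 h. In growth media these shares were 11.7% higher and 12.2% lower at 48 h, then 12.3% higher and 12.4% lower at 96 h. In differentiation media they were 15.1% higher and 17.3% lower at 48 h, then 10.5% higher and 12.8% lower at 96 h. By adjusted p alone 5 of the 8 passed at 24 h (32.5% of all), 7 at 48 h (58%) and 5 at 96 h (56.4%) in growth media, and 7 at 48 h (64.9%) and 7 at 96 h (59.2%) in differentiation media. Those called higher were LMNB1 at 24 h, DES and NES at 48 and 96 h in either medium, and LMNB1 at 48 h in differentiation media. Those called lower were SYNC at 24 h, LMNB1 and LMNB2 at 48 and 96 h in growth media, and VIM at 96 h in growth media and at 48 h in differentiation media. The median change over the 8 genes was 0.34 on the log2 scale at 24 h, 0.07 and 0.04 at 48 and 96 h in growth media, and 0.49 and -0.55 at 48 and 96 h in differentiation media, where the median over all tested genes lay between -0.06 and 0.

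**Figure D1:**
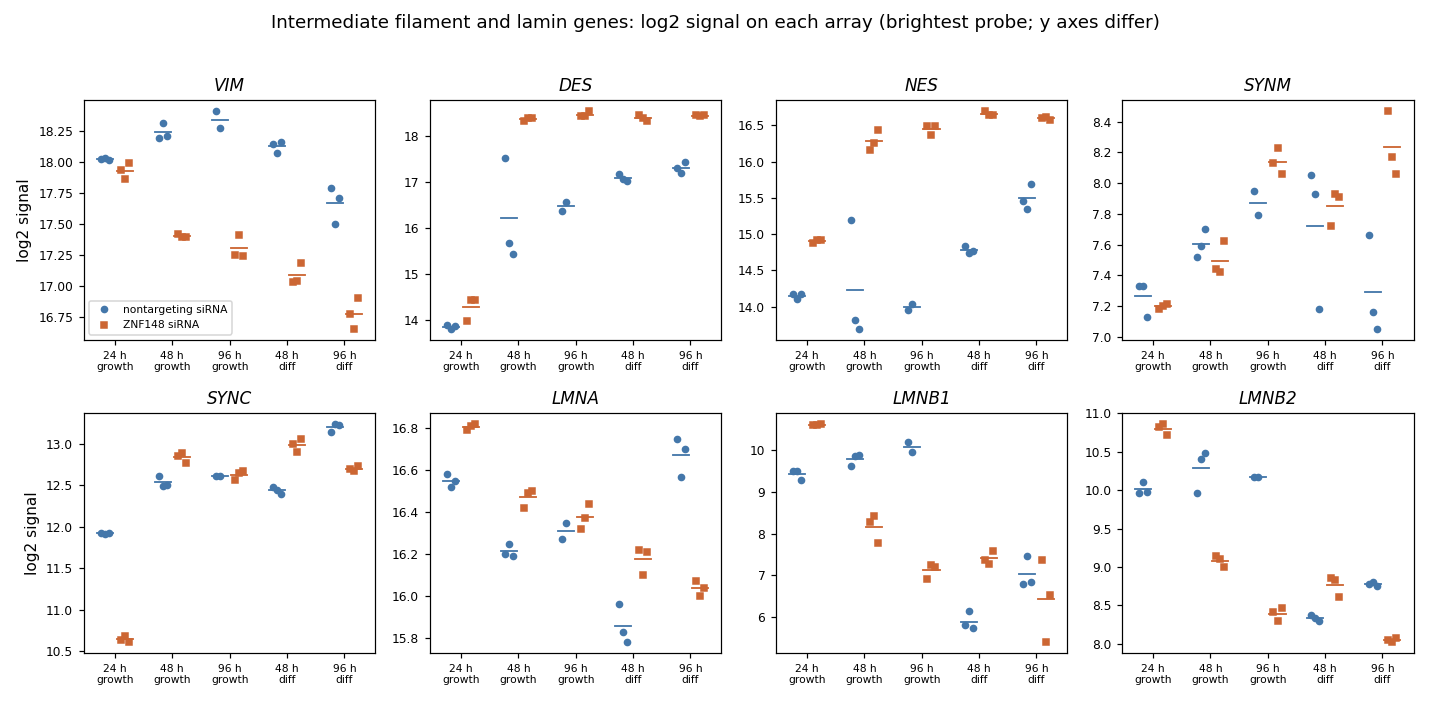
Log2 signal (y axis, quantile-normalized, a range of its own for each gene) of the brightest probe of each gene on each array, by time and medium (x axis), with circles for nontargeting siRNA, squares for ZNF148 siRNA and a short line at each group mean. VIM fell to between 16.65 and 17.42 at 48 and 96 h after ZNF148 siRNA while DES lay between 18.33 and 18.55, and the first nontargeting array at 48 h in growth media, at 17.53 for DES, stood apart from the others of its group.

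Vimentin fell after ZNF148 siRNA at 48 and 96 h in both media. In growth media at 48 h VIM had log2 signals of 18.19, 18.31 and 18.21 with nontargeting siRNA and of 17.42, 17.39 and 17.39 with ZNF148 siRNA. At 96 h the nontargeting arrays gave 18.41 and 18.27 and the ZNF148 siRNA arrays 17.25, 17.41 and 17.24. The groups did not overlap at either time, and VIM was 1.79-fold lower at 48 h, under the 2-fold threshold (log2 change -0.84 ± 0.0766 SE, limma adjusted p = 9.97e-09), and 2.06-fold lower at 96 h (-1.04 ± 0.0856, adjusted p = 2.11e-09). Differentiation media gave 18.14, 18.07 and 18.16 for VIM with nontargeting siRNA at 48 h and 17.03, 17.04 and 17.18 with ZNF148 siRNA. Here VIM was 2.06-fold lower as well (-1.04 ± 0.0766, adjusted p = 1.29e-10), and at 96 h in this medium it was 1.86-fold lower (-0.90 ± 0.0766, adjusted p = 2.77e-09). At 24 h the nontargeting arrays lay at 18.02, 18.03 and 18.01 and the ZNF148 siRNA arrays at 17.93, 17.86 and 17.99. That difference did not pass the test (-0.09 ± 0.0766, adjusted p = 0.461). The effect on VIM at 48 h minus that at 24 h was -0.75 on the log2 scale (adjusted p = 1.22e-05), and that at 96 h minus that at 24 h was -0.95 (adjusted p = 1.04e-06), both under 2-fold.

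The VIM calls lay close to the fold threshold. With each array scaled to its 75th percentile VIM was 1.97-fold lower at 96 h in growth media and 1.95-fold lower at 48 h in differentiation media, and leaving out nontargeting replicate 1 at 96 h in growth media gave a log2 change of -0.97. Within slides the VIM changes were -0.92, -0.8 and -0.79 at 48 h in growth media and -1.1, -1.13 and -0.89 at 48 h in differentiation media. The VIM probe ranked between 11 and 278 from the top of its array, near the upper end of the common distribution. On the unscaled signals the order was the same, with 18.11, 18.26 and 18.22 for nontargeting siRNA and 17.42, 17.43 and 17.3 for ZNF148 siRNA at 48 h in growth media. THY1, a surface marker of fibroblasts, also fell, with log2 changes of -3.01 at 48 h and -4.77 at 96 h in growth media (limma adjusted p = 4.04e-13 and 2.91e-15), while for COL1A1, a fibrillar collagen gene, they were 2.42 and 2.62 (adjusted p = 8.26e-07 and 1.44e-06). Of the fibroblast list, 1 of 5 genes was higher and 1 lower at both times, and its list mean at 48 h in growth media ranged from 9.81 to 10.76 with nontargeting siRNA and from 10.04 to 10.16 with ZNF148 siRNA. In differentiation media 1 was higher and 1 lower at 48 h, and none was higher and 2 were lower at 96 h, when the list means were 10.41 to 10.44 with nontargeting siRNA and 9.42 to 9.56 with ZNF148 siRNA. At 24 h 2 were higher and none lower, with list means of 9.29 to 9.35 and 10.13 to 10.43 in the same order. Over all tested genes 11.7% and 12.3% were called higher at 48 and 96 h in growth media, and 12.2% and 12.4% lower. In differentiation media 15.1% and 10.5% were called higher, and 17.3% and 12.8% lower. The shares at 24 h were 2.46% higher and 3.08% lower. The part of the fibroblast markers in the VIM result was not tested, and fewer cells of a type cannot be told apart from less RNA per cell in such bulk samples.

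**Figure D2:**
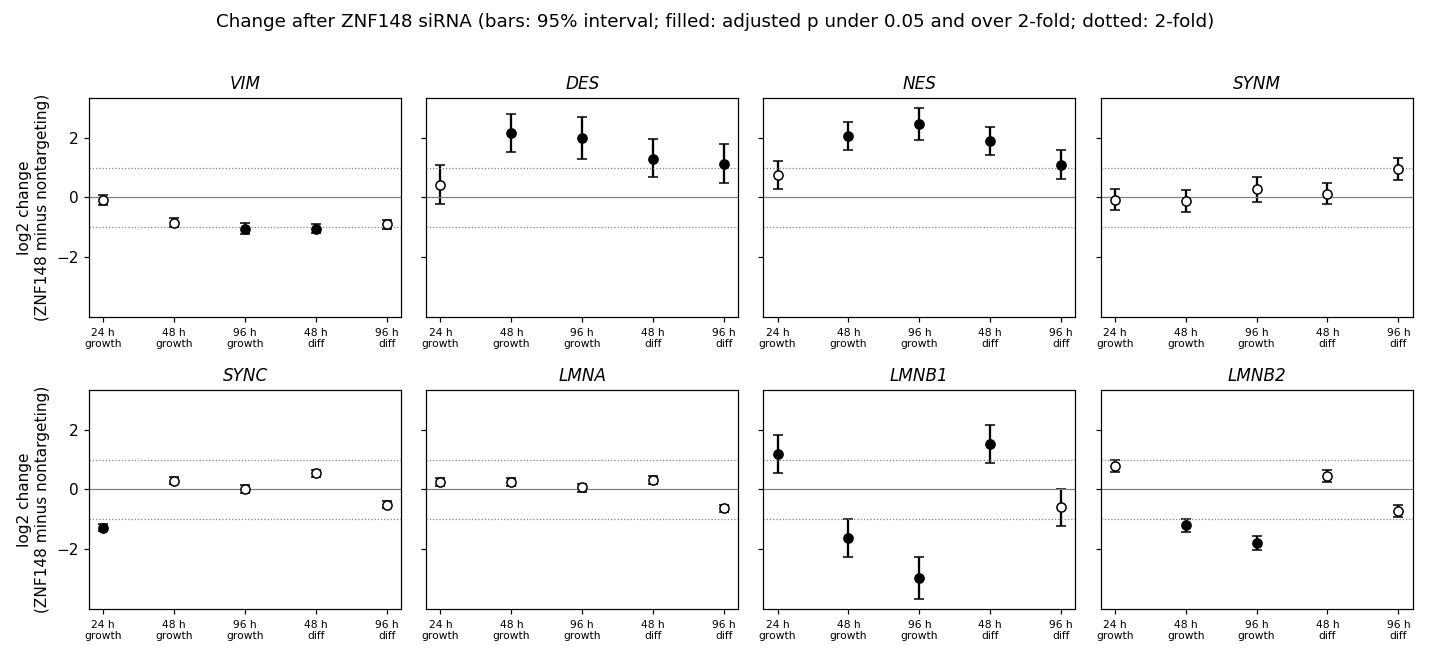
Log2 change after ZNF148 siRNA (y axis, ZNF148 minus nontargeting siRNA) of each gene by time and medium (x axis), with the 95% interval of the limma fit as bars, filled points for calls and dotted lines at 2-fold. DES and NES lay above 0 in all 5 comparisons, VIM lay below 0 in all 5, and LMNB1 went from 1.18 at 24 h to -2.95 at 96 h in growth media.

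Desmin rose where vimentin fell. In growth media at 48 h DES had log2 signals of 17.53, 15.68 and 15.45 with nontargeting siRNA and of 18.33, 18.4 and 18.4 with ZNF148 siRNA. The ZNF148 siRNA arrays agreed closely and all lay above the nontargeting arrays, of which replicate 1 was nearest. DES was 4.45-fold higher at 48 h (log2 change 2.15 ± 0.306, limma adjusted p = 4.27e-06), and 7-fold higher without nontargeting replicate 1 (2.81, adjusted p = 1.26e-14). Within slides the change was 2.72 and 2.87 on 2 slides and 0.87 on slide 2, which held that array. At 96 h in growth media the arrays gave 16.38 and 16.58 with nontargeting siRNA and 18.43, 18.43 and 18.55 with ZNF148 siRNA, a 3.97-fold difference (1.99 ± 0.342, adjusted p = 5.04e-05). In differentiation media at 48 h they gave 17.18, 17.07 and 17.03 against 18.46, 18.4 and 18.34, or 2.47-fold (1.30 ± 0.306, adjusted p = 0.000951). By 96 h in that medium DES was at 17.31, 17.21 and 17.44 against 18.46, 18.43 and 18.46. This was 2.19-fold (1.13 ± 0.306, adjusted p = 0.00397), and all groups compared were apart from each other.

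The 24 h values of DES were 13.9, 13.81 and 13.87 with nontargeting siRNA and 13.99, 14.44 and 14.44 with ZNF148 siRNA. The difference of 0.43 did not pass the test (adjusted p = 0.376), although the groups did not overlap, and passed it without nontargeting replicate 1 at 48 h in growth media (adjusted p = 0.00214), still under 2-fold. The effect at 48 h in growth media exceeded that at 24 h by 1.72 on the log2 scale (adjusted p = 0.00318), which became 0.0668 when the fit held only the arrays of that comparison and 4.37e-11, with a difference of 2.38, without nontargeting replicate 1 at 48 h. The effect at 96 h exceeded that at 24 h by 1.56 (adjusted p = 0.01). Between the media the effect on DES did not pass the test of the difference at 48 h (-0.85, adjusted p = 0.156) or at 96 h (-0.86, adjusted p = 0.199), but without nontargeting replicate 1 both passed (-1.5, adjusted p = 6.85e-08, after 48 h and -0.86, adjusted p = 0.000131, after 96 h). In the 12 ZNF148 siRNA arrays from 48 and 96 h the DES probe ranked between 7 and 16 from the top of its array, so it lay at the upper end of the common distribution set by quantile normalization.

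Nestin, the filament protein of precursor cells and regenerating fibres, rose together with desmin. NES was at 14.17, 14.1 and 14.17 with nontargeting siRNA at 24 h and at 14.87, 14.92 and 14.92 with ZNF148 siRNA. This early difference was 1.69-fold and passed the test without reaching the fold threshold (log2 change 0.75 ± 0.228, limma adjusted p = 0.0184). The log2 signals at 48 h in growth media were 15.2, 13.81 and 13.69 against 16.16, 16.26 and 16.44, so NES was 4.14-fold higher (2.05 ± 0.228, adjusted p = 1.56e-07), or 5.79-fold without nontargeting replicate 1. Within slides the change was 2.62 and 2.47, and 1.06 on slide 2 with that array. At 96 h they were 13.95 and 14.04 against 16.49, 16.37 and 16.49, and the change of 5.48-fold (2.45 ± 0.255, adjusted p = 6.71e-08) passed the test. The second NES probe gave 1.68-fold, 4.32-fold and 5.61-fold at these times.

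In differentiation media NES stood at 14.83, 14.74 and 14.76 with nontargeting siRNA at 48 h and at 16.7, 16.65 and 16.64 with ZNF148 siRNA, which was 3.70-fold (1.89 ± 0.228, adjusted p = 2.92e-07). At 96 h the values were 15.45, 15.34 and 15.69 against 16.6, 16.62 and 16.57, or 2.15-fold (1.10 ± 0.228, adjusted p = 0.000341). The ZNF148 siRNA groups of both media lay within 16.16 to 16.7 at 48 and 96 h, whereas the nontargeting groups differed more. At 96 h the effect in differentiation media minus that in growth media was -1.35 on the log2 scale (adjusted p = 0.0056). At 48 h the difference between media of -0.16 did not pass the test (adjusted p = 0.777), and without nontargeting replicate 1 it was -0.65 (adjusted p = 0.000152). The effect on NES was also larger at 48 h than at 24 h in growth media, by 1.30 (adjusted p = 0.00293, or 0.0609 in a fit of only those arrays), and larger at 96 h than at 24 h by 1.70 (adjusted p = 0.000411).

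The muscle marker list moved with DES and NES at 48 and 96 h in growth media, and less clearly elsewhere. Of its 8 genes 6 were called higher and 1 lower at 48 h in growth media and 5 higher and 1 lower at 96 h, with median changes of 3.27 and 3.02, while 4 were called higher at 48 h in differentiation media and none at 96 h. Over all tested genes 11.7% and 12.3% were called higher at 48 and 96 h in growth media, and 12.2% and 12.4% lower. The shares called higher were 15.1% and 10.5% at 48 and 96 h in differentiation media, and 2.46% at 24 h. The list median was 1.79 and 0.62 in differentiation media at 48 and 96 h. At 24 h it was -0.07, with 1 gene called higher. Its mean log2 signal over the list was 15.36 to 15.38 on the ZNF148 siRNA arrays at 48 h in growth media, and 14.33 to 14.48 on the nontargeting arrays at 96 h in differentiation media against 15.41 to 15.44 with ZNF148 siRNA. CKM, muscle creatine kinase, had a log2 change of 8.06 at 48 h in growth media (limma adjusted p = 0.00013), and MYF5, a regulator of undifferentiated myoblasts, one of -1.63 (adjusted p = 3.59e-06). The part of the muscle markers in the DES and NES results was not tested.

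Syncoilin, which binds desmin and the dystrobrevin of the dystrophin complex, showed its largest change at the earliest time. SYNC gave 11.93, 11.91 and 11.93 with nontargeting siRNA at 24 h and 10.63, 10.69 and 10.61 with ZNF148 siRNA, which were well apart and 2.43-fold lower (log2 change -1.28 ± 0.0549, limma adjusted p = 1.06e-12). At 48 h in growth media the arrays gave 12.62, 12.49 and 12.5 against 12.86, 12.89 and 12.77, a rise of 1.23-fold (0.30 ± 0.0549, adjusted p = 8.14e-05), and at 96 h the difference was 0.01 (95% interval -0.12 to 0.14, adjusted p = 0.926). The effect at 48 h was therefore 1.58 higher on the log2 scale than at 24 h (adjusted p = 3.23e-12), and that at 96 h was 1.29 higher than at 24 h (adjusted p = 1.03e-10). In differentiation media SYNC was 1.46-fold higher at 48 h (0.54 ± 0.0549, adjusted p = 1.97e-08) and 1.42-fold lower at 96 h (-0.51 ± 0.0549, adjusted p = 9.42e-08). The 48 h groups were at 12.48, 12.44 and 12.4 and at 13, 12.9 and 13.06, and the 96 h groups at 13.15, 13.24 and 13.23 and at 12.7, 12.67 and 12.73. No other of the 8 genes was called lower at 24 h.

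Synemin, a large partner of desmin and vimentin in the filament network, gave log2 signals between 7.05 and 8.47 over the 29 arrays. SYNM did not pass the test at 24 h (log2 change -0.07, limma adjusted p = 0.882), at 48 h or 96 h in growth media (-0.11 and 0.27, adjusted p = 0.668 and 0.304) or at 48 h in differentiation media (0.13, adjusted p = 0.568). At 96 h in differentiation media it was at 7.66, 7.16 and 7.05 with nontargeting siRNA and at 8.47, 8.17 and 8.06 with ZNF148 siRNA. This 1.93-fold difference passed the test but not the fold threshold (0.95 ± 0.172, adjusted p = 8.53e-05), and the nearest arrays of the 2 groups were 8.06 and 7.66.

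Lamin B1 changed in opposite directions across the 5 comparisons. At 24 h LMNB1 was at 9.5, 9.5 and 9.3 with nontargeting siRNA and at 10.6, 10.6 and 10.63 with ZNF148 siRNA, 2.26-fold higher (log2 change 1.18 ± 0.303, limma adjusted p = 0.00597). At 48 h in growth media the order was turned, with 9.63, 9.86 and 9.89 against 8.27, 8.43 and 7.78, 3.1-fold lower (-1.63 ± 0.303, adjusted p = 0.000107). At 96 h the arrays gave 10.19 and 9.97 against 6.92, 7.26 and 7.2. This was 7.74-fold lower (-2.95 ± 0.339, adjusted p = 2.74e-07), the largest change of any of the 8 genes after ZNF148 siRNA. The effect minus that at 24 h was -2.81 after 48 h (adjusted p = 2.23e-05) and -4.13 after 96 h (adjusted p = 2.94e-07). Within slides the change at 48 h was -2.09, -1.2 and -1.62.

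In differentiation media the lowest group mean of LMNB1 was that of nontargeting cells at 48 h, at 5.8, 6.15 and 5.73, while ZNF148 siRNA arrays gave 7.36, 7.27 and 7.59. LMNB1 was thus 2.85-fold higher with ZNF148 siRNA (1.51 ± 0.303, adjusted p = 0.000192), or 1.81-fold higher after normexp background correction. By 96 h the nontargeting arrays had 6.8, 7.46 and 6.85 and the ZNF148 siRNA arrays 7.36, 5.4 and 6.54. These overlapped, and the difference of -0.60 did not pass the test (± 0.303, adjusted p = 0.112), although without ZNF148 siRNA replicate 1, the highest of its group, it was -1.07 (adjusted p = 0.00162). Over single arrays left out, the change ran from -1.07 to -0.08 (limma adjusted p from 0.00162 to 0.827). Between the media the effect of ZNF148 siRNA on LMNB1 differed by log2 3.15 after 48 h (adjusted p = 5.04e-06, and 2.21 after normexp) and 2.35 after 96 h (adjusted p = 0.000542), each time higher in differentiation media.

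Lamin B2 changed in the same direction as lamin B1 in the 4 comparisons in which both passed the test, each time by less, and at 96 h in differentiation media it passed where lamin B1 did not. LMNB2 was at 9.96, 10.11 and 9.98 with nontargeting siRNA at 24 h and at 10.82, 10.86 and 10.72 with ZNF148 siRNA, 1.72-fold higher (log2 change 0.78 ± 0.0971, limma adjusted p = 3.08e-06). In growth media it was at 48 h at 9.96, 10.4 and 10.49 against 9.14, 9.1 and 9, or 2.30-fold lower (-1.20 ± 0.0971, adjusted p = 1.64e-09). At 96 h it was at 10.17 and 10.17 against 8.41, 8.29 and 8.47, or 3.44-fold lower (-1.78 ± 0.109, adjusted p = 2.24e-11). The groups were apart at all 3 times, and the effect minus that at 24 h was -1.99 at 48 h and -2.56 at 96 h (adjusted p = 4.86e-10 and 1.68e-11). In differentiation media LMNB2 was 1.36-fold higher at 48 h (0.44 ± 0.0971, adjusted p = 0.000538), with 8.37, 8.33 and 8.29 against 8.85, 8.83 and 8.61. At 96 h it was 1.66-fold lower (-0.73 ± 0.0971, adjusted p = 1.7e-06), with 8.78, 8.8 and 8.75 against 8.05, 8.02 and 8.07. The effect was 1.64 higher in differentiation than in growth media at 48 h (adjusted p = 5.44e-09) and 1.05 higher at 96 h (adjusted p = 1.48e-05).

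Genes that mark cycling cells moved with the B-type lamins in growth media. All 7 of the list (MKI67, TOP2A, CCNB1, BUB1, PCNA, MCM2 and TYMS) were called lower at 48 and 96 h in growth media, with median changes of -3.24 and -4.03, and 1 was called higher at 24 h, where the median was 0.63. Their mean log2 signal at 24 h was 12.49 to 12.56 with nontargeting siRNA and 12.99 to 13.13 with ZNF148 siRNA. In growth media at 48 h it was 12.09 to 12.63 against 9.22 to 9.55, and at 96 h 12.39 to 12.43 against 8.51 to 8.57. At 48 h in differentiation media, where LMNB1 was higher with ZNF148 siRNA, the mean of the cycling markers was lower, at 8.97 to 9.11 against 8.3 to 8.46. Of the 7, 3 were called lower and 4 were not called, with a median of -0.9. CDK1, the mitotic kinase, which is outside this list, was called higher in the same comparison. At 96 h in that medium the marker means were at 9.97 to 10.02 against 7.25 to 7.57, with 6 of 7 called lower. Over all tested genes 12.2% and 12.4% were called lower at 48 and 96 h in growth media. The shares called lower were 17.3% and 12.8% in differentiation media, and at 24 h 2.46% were called higher. The part of cycling in the lamin results was not tested.

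**Figure D3:**
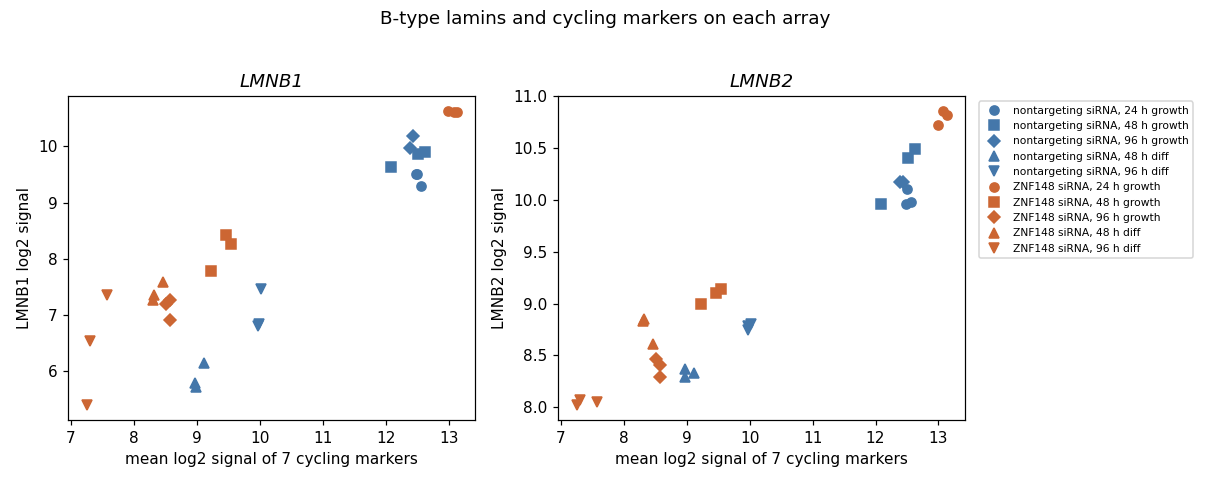
Log2 signal of LMNB1 (left) and LMNB2 (right) on the y axis against the mean log2 signal of the 7 cycling markers on the x axis, a point for each of the 29 arrays, with colour for the siRNA and shape for time and medium. All 24 h arrays and the nontargeting arrays in growth media lie at marker means of 12.09 and above with LMNB1 at 9.3 or above, and at 48 h in differentiation media LMNB1 is higher with ZNF148 siRNA (7.27 to 7.59) than with nontargeting siRNA (5.73 to 6.15) although the marker means are lower.

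The 3 probes of the A-type lamin gene did not move together, and none of them was called in the 5 comparisons. The brightest LMNA probe carries the accession of the lamin C transcript, another that of the lamin A transcript and the remaining one that of a further LMNA transcript. Which other transcripts each probe also binds is not known here. The lamin C probe was 1.19-fold higher with ZNF148 siRNA at 24 h and at 48 h in growth media (log2 changes 0.25 and 0.26, limma adjusted p = 0.00246 and 0.000887), and at 96 h the difference of 0.07 did not pass the test (adjusted p = 0.471). In differentiation media this probe was 1.25-fold higher at 48 h (0.32, adjusted p = 7.03e-05) and 1.55-fold lower at 96 h (-0.63, adjusted p = 8.28e-09).

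The lamin A probe was 1.72-fold higher at 24 h, with 14.57, 14.61 and 14.52 for nontargeting siRNA and 15.28, 15.38 and 15.37 for ZNF148 siRNA (0.78 ± 0.0739, adjusted p = 8.74e-08). At 48 h in differentiation media it opposed the lamin C probe, with 14.82, 14.85 and 14.92 against 14.09, 13.91 and 13.91, or 1.85-fold lower (-0.89 ± 0.0739, adjusted p = 8.92e-10), while the third probe showed no difference that passed the test (0.03, adjusted p = 0.882). At 48 h the effect on the lamin A probe in differentiation minus that in growth media was -1.22 (adjusted p = 7.56e-09), whereas that on the lamin C probe differed by 0.06 (adjusted p = 0.65). At 96 h in differentiation media all 3 probes were lower with ZNF148 siRNA, with log2 changes of -0.63, -0.67 and -0.85 (adjusted p = 8.28e-09, 9.46e-06 and 3.88e-09). The third probe gave 14.86 and 14.28 with nontargeting siRNA at 96 h in growth media and 14.97, 14.86 and 15.04 with ZNF148 siRNA, a change of 0.39 (adjusted p = 0.00744) in which the nontargeting arrays lay further apart than the groups. On the third probe the effect in differentiation media minus that in growth media was -1.06 (adjusted p = 2.24e-05).

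**Figure D4:**
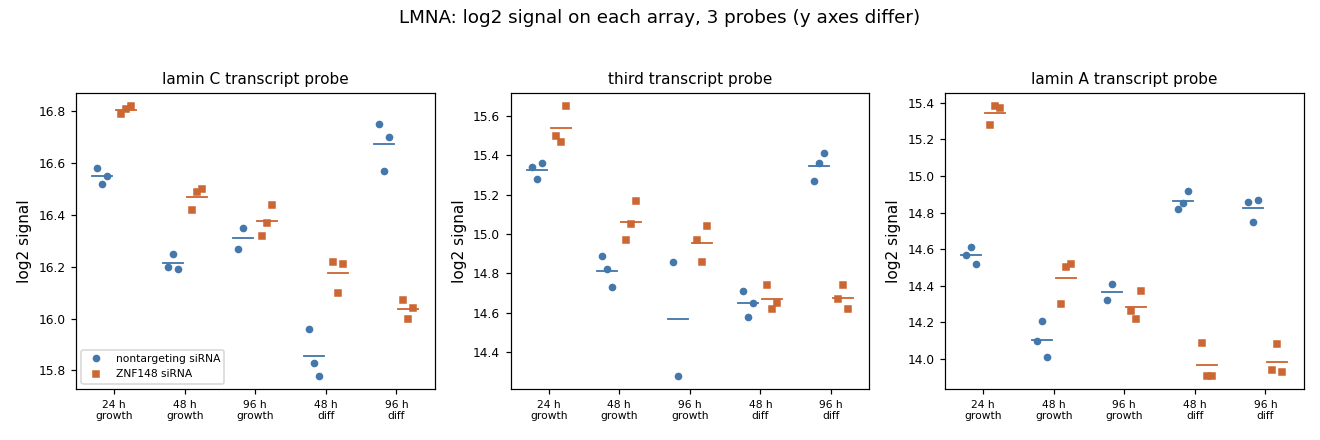
Log2 signal (y axis, a range of its own for each probe) of the 3 LMNA probes on each array by time and medium (x axis), with circles for nontargeting siRNA, squares for ZNF148 siRNA and lines at group means. At 48 h in differentiation media the lamin A transcript probe lay at 13.91 to 14.09 with ZNF148 siRNA, below the nontargeting arrays at 14.82 to 14.92, while the lamin C transcript probe lay above its nontargeting arrays.

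The change of medium in nontargeting cells was tested to see which of these genes respond to differentiation media without loss of ZNF148. Of the 8 genes 2 were called at 48 h, where 16% of all tested genes were called, and 3 at 96 h (15%). By adjusted p alone 4 passed at 48 h (49.8%) and 7 at 96 h (43.8%). LMNB1 was 14.9-fold lower in differentiation than in growth media at 48 h (log2 change -3.90 ± 0.303, limma adjusted p = 8.16e-10, and -2.83 after normexp background correction) and 8.26-fold lower at 96 h (-3.05 ± 0.339, adjusted p = 3.18e-07), and LMNB2 was 3.88-fold and 2.62-fold lower (adjusted p = 6.68e-13 and 1.86e-09). NES was 2.82-fold higher at 96 h (1.5 ± 0.255, adjusted p = 7.38e-05). At 48 h NES differed by 0.54 (adjusted p = 0.0679) and DES by 0.88 (adjusted p = 0.0266), and without nontargeting replicate 1 in growth media both were called higher, NES by 2.03-fold (adjusted p = 5.14e-09) and DES by 2.89-fold (adjusted p = 3.99e-10). VIM was 1.60-fold lower at 96 h (-0.68 ± 0.0856, adjusted p = 1.87e-06) and did not pass the test at 48 h (-0.11, adjusted p = 0.283). The lamin A probe was 1.69-fold higher at 48 h (0.75, adjusted p = 2.82e-08) where the lamin C probe was 1.28-fold lower (-0.35, adjusted p = 3.27e-05).

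With ZNF148 siRNA the same media were compared. None of the 8 was called at 48 h, where 3.97% of all tested genes were called, or at 96 h (6.39%), although 3 at 48 h (19.1%) and 3 at 96 h (28.5%) had an adjusted p under 0.05, all lower in differentiation media. Without nontargeting replicate 1 at 48 h in growth media NES also passed at 48 h, and was higher (0.38, adjusted p = 0.00147, against 0.35 with it). With all arrays the 3 that passed were VIM, LMNA and LMNB2 at both times, and VIM was 1.24-fold and 1.44-fold lower (limma adjusted p = 0.00693 and 2.48e-05). DES differed by 0.03 and -0.02 on the log2 scale at 48 and 96 h, with SE of 0.306. LMNB1 was 1.69-fold lower at 48 h and 1.62-fold lower at 96 h, which did not pass the test (adjusted p = 0.116 and 0.114), although without ZNF148 siRNA replicate 1 at 96 h in differentiation media the 96 h change was -1.16 (adjusted p = 0.00244) and was called. This 96 h change ran from -1.16 to -0.18 over single arrays left out (limma adjusted p from 0.00244 to 0.708). The comparisons between media share arrays with those between siRNAs, so their values are not independent of each other.

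**Figure D5:**
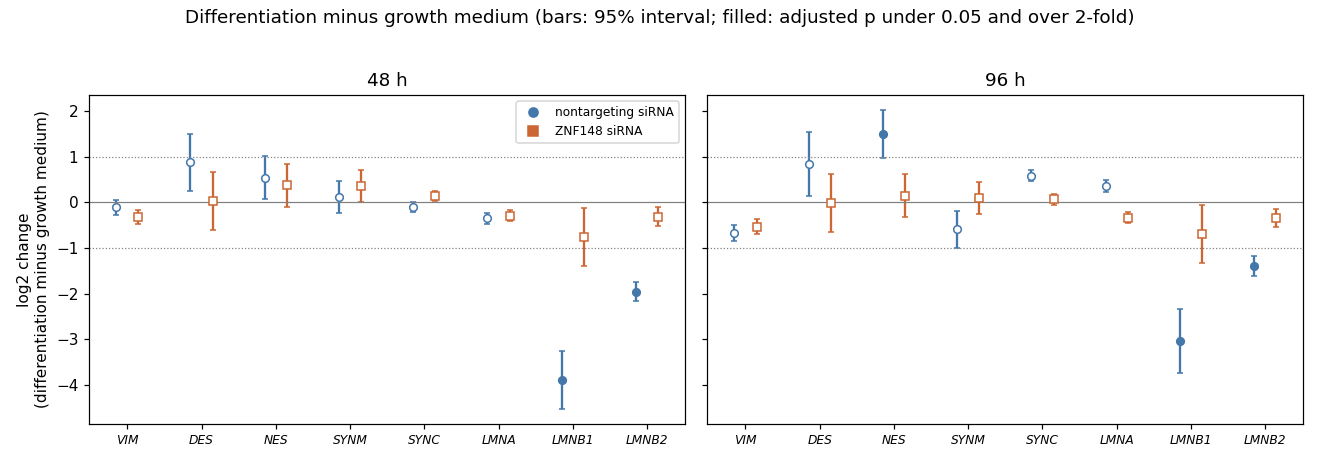
Log2 change between media (y axis, differentiation minus growth) of each gene (x axis) at 48 h (left) and 96 h (right), with circles for nontargeting siRNA, squares for ZNF148 siRNA, 95% intervals as bars and filled points for calls. LMNB1 lay at -3.90 and -3.05 with nontargeting siRNA and at -0.75 and -0.69 with ZNF148 siRNA.

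The change from 48 to 96 h was compared within each siRNA and medium. With nontargeting siRNA none was called in growth media, where 0.435% of all tested genes were called and where none of the 8 but 2.39% of all had an adjusted p under 0.05 by limma. Without nontargeting replicate 1 at 48 h, DES passed there (0.92, adjusted p = 5.4e-05, against 0.26 and 0.864 with it). In nontargeting cells LMNB1 alone was called in differentiation media (9.97%), 2.21-fold higher at 96 h (log2 change 1.14 ± 0.303, limma adjusted p = 0.00538). By adjusted p alone 6 passed there (42.5%). In the same cells the lamin C probe of LMNA was 1.76-fold higher (0.82, adjusted p = 1.01e-09), SYNC 1.70-fold higher (0.77, adjusted p = 1.04e-09) and VIM 1.37-fold lower (-0.46, adjusted p = 6.48e-05). With ZNF148 siRNA in growth media LMNB1 alone was called (5.95%), 2.04-fold lower at 96 h (-1.03 ± 0.303, adjusted p = 0.0166), a call that lay at the threshold, and 4 passed by adjusted p alone (28.9%). In differentiation media with ZNF148 siRNA none was called (8.05%) and 4 passed by adjusted p alone (36.8%), and LMNB1 was 1.96-fold lower (-0.97, adjusted p = 0.019). LMNB2 was 1.61-fold lower in growth media (-0.69, adjusted p = 1.69e-05) and 1.64-fold lower in differentiation media (-0.72, adjusted p = 6.85e-06).

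The tests of differences between siRNA effects can be read against the whole array in the same way. Of the 8 genes 5 were called for 48 h against 24 h in growth media, where 20.6% of all tested genes were called, and 5 for 96 h against 24 h (22.9%). Both times these were DES, NES, SYNC, LMNB1 and LMNB2. None was called for 96 h against 48 h (5.01%), where LMNB1 differed by -1.32 (limma adjusted p = 0.0684) and LMNB2 by -0.58 (adjusted p = 0.0114). DES differed by -0.17 (adjusted p = 0.897), and by -0.82 without nontargeting replicate 1 at 48 h (adjusted p = 0.000805). Between media 2 were called at 48 h (17.2%) and 3 at 96 h (12.5%). By adjusted p alone 6 passed for 48 h against 24 h (45.7%), 6 for 96 h against 24 h (47.2%) and 2 for 96 h against 48 h (15.6%), and between media 3 at 48 h (42.3%) and 5 at 96 h (31.7%).

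The order of the group means differed from gene to gene. For VIM it ran from 18.34 with nontargeting siRNA at 96 h in growth media down to 16.77 with ZNF148 siRNA at 96 h in differentiation media, and 2 of the 9 pairs of neighbouring groups overlapped. DES ran from 18.47 with ZNF148 siRNA at 96 h in growth media to 13.86 with nontargeting siRNA at 24 h, with overlap in 4 of 9 pairs, among them the ZNF148 siRNA groups at 48 and 96 h. NES ran from 16.66 to 14 and overlapped in 3 pairs. LMNB1 ran from 10.61 with ZNF148 siRNA at 24 h to 5.89 with nontargeting siRNA at 48 h in differentiation media, with 3 overlapping pairs, and LMNB2 from 10.8 to 8.05, also with 3. LMNA ran from 16.81 to 15.86 with overlap in 4 pairs, SYNC from 13.21 to 10.64 with overlap in 3, and SYNM from 8.23 to 7.2 with overlap in 8. These orders place the 24 h groups beside arrays of another slide and scan.

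Other filament genes outside the 8 were taken from a list chosen by family. Of 17 other cytoplasmic filament genes 13 had a tested probe, and 2 were called higher and 1 lower at 48 h in growth media, and 3 and 1 at 96 h, where 23.9% and 24.7% of all tested genes were called in either direction. The median changes of this list were 0.48 and 0.21, against -0.05 and -0.03 over all tested genes. NEFM, a neurofilament subunit, had log2 changes of 2.9 at 48 h and 4.42 at 96 h (limma adjusted p = 7.98e-07 and 1.17e-08), and KRT80, a keratin, of 2.69 and 1.66 (adjusted p = 4.97e-06 and 0.00322). NEFH, the heavy neurofilament subunit, fell, with -1.65 and -1.64 (adjusted p = 2.01e-13 and 1.21e-12). In differentiation media 2 were called higher and 2 lower at 48 h and 2 higher and 4 lower at 96 h, and at 24 h 1 was called higher. Over all tested genes 32.4% and 23.3% were called at 48 and 96 h in differentiation media, and 5.54% at 24 h.

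Linkers and chaperones of the filaments were called higher more often than lower. Of 18 tested, 8 were called higher and none lower at 48 h and at 96 h in growth media, with medians of 0.64 and 0.46, and 10 were called higher and none lower at 48 h in differentiation media, with a median of 1.2. At 96 h in differentiation media 3 were called higher and 1 lower, and at 24 h 2 higher and 1 lower. Over all tested genes 11.7% and 12.3% were called higher at 48 and 96 h in growth media. In differentiation media 15.1% and 10.5% were called higher at 48 and 96 h, and at 24 h 2.46%. The shares called lower were 12.2%, 12.4%, 17.3%, 12.8% and 3.08% in the same order. CRYAB, a small heat shock protein that binds desmin, had a log2 change of -1.34 at 24 h (limma adjusted p = 7.76e-05) but of 2.15 at 48 h and 2.64 at 96 h in growth media (adjusted p = 4.11e-08 and 1.1e-08). NEB, the thin filament protein nebulin, which reaches desmin at the Z-disc, gave 5.98 and 5.9 (adjusted p = 2.57e-05 and 0.000122), and DMD, dystrophin, 2.46 and 3.43 (adjusted p = 3.78e-07 and 1.81e-08).

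Of 20 partners of the lamins at the nuclear envelope, 4 were called higher and 2 lower at 48 h in growth media and 2 higher and 3 lower at 96 h, with medians of -0.09 and -0.27. Over all tested genes 11.7% were called higher and 12.2% lower at 48 h in this medium, and 12.3% higher and 12.4% lower at 96 h. PLPP7 and TMEM38A, membrane proteins of muscle nuclei and sarcoplasmic reticulum, had log2 changes of 2.15 and 4.63 at 48 h (limma adjusted p = 7.78e-08 and 6.6e-06). NRM, nurim, an inner nuclear membrane protein, fell, with -1.3 at 48 h and -1.8 at 96 h (adjusted p = 3.8e-10 and 1.57e-11). TMPO, which encodes the lamina-associated LAP2 proteins, had changes of 1.06 at 24 h (adjusted p = 5.87e-05), 1.63 at 48 h in differentiation media (adjusted p = 2.54e-08) and -2.23 at 96 h in growth media (adjusted p = 2.95e-09). LBR, the lamin B receptor, named after its values were seen, gave 1.63 at 24 h (adjusted p = 2.97e-11).

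Of 5 enzymes that process prelamin, only ICMT, the methyltransferase of farnesylated proteins, was called, with a log2 change of -1.25 at 48 h in growth media (limma adjusted p = 1.33e-05), and none was called in the other 4 comparisons. Of 10 tested regulators that phosphorylate or cleave filaments, CDK1, the mitotic kinase, gave -2.94 at 48 h and -4.8 at 96 h in growth media (adjusted p = 2.75e-11 and 8.66e-14) and 1.08 at 48 h in differentiation media (adjusted p = 2.76e-05). In all, 2 of these were called higher and 4 lower at 48 h in growth media, and 1 higher and 4 lower at 96 h. In differentiation media 3 were called higher and none lower at 48 h, and none higher and 3 lower at 96 h. Of the 6 factors listed for the VIM promoter, 1 was called lower at 24 h and at 48 h in growth media. This was ZNF148 itself, the target of the siRNA. At 96 h 2 were called lower, ZNF148 and SP3, a relative of SP1 that binds GC boxes. SP3 gave -1.25 there (adjusted p = 7.19e-07). SP3 also gave -1.32 at 48 h in differentiation media (adjusted p = 3.48e-08). In that medium 3 of the 6 factors were called lower at 48 h and 2 at 96 h, with list medians of -1.03 and -0.79, and none was called higher. Beside the counts of these lists, 5.54%, 23.9% and 24.7% of all tested genes were called at 24, 48 and 96 h in growth media. In differentiation media the shares were 32.4% at 48 h and 23.3% at 96 h.

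The genes whose log2 signals over the 29 arrays were most like those of 7 of the 8 members, among 12392 genes above background on all arrays, are given as a description, since the arrays share their groups. For VIM they were GANAB, PTGFR and MBNL3, with Pearson correlations of 0.974, 0.972 and 0.967. For DES they were SOD3, TNNT2 and IGF2 (0.991, 0.99 and 0.988), and for NES MPC2, TGFB2 and BLTP3A (0.984, 0.984 and 0.983). LMNB2 was most like MND1, H3C2 and TRIP13 (0.986, 0.984 and 0.984). The nearest gene to SYNC was BTF3L4 (0.967), to LMNA KRT17 (0.885) and to SYNM HECA (0.815).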

How the data were processed

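The members and gene lists were chosen with earlier results of these data known. RNA of 29 samples was hybridized to 1-colour Agilent arrays of 62976 spots, 2075 of them control spots. The authors extracted signals with Agilent Feature Extraction (10.7.3.1 in the submitters' processing notes). The deposited intensities are background-subtracted and not scaled between arrays. The authors also deposited log2 values that were quantile-normalized, which were used as an alternative (each column correlated with its own array at 0.9951 or above). Spot mean signals were not used here, and normexp was run on the median signals of spots and their background.

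In R 4.3.3 with limma 3.58.1, control and outlier spots were left out, signals were log2-transformed, replicate spots were averaged to 58201 probe values, and these were quantile-normalized. A probe had to exceed background clearly on 2 or more arrays, which left 38717, all in 1 fit of 10 group means (lmFit, eBayes, two-sided, Benjamini-Hochberg adjustment over all of them). A call needed an adjusted p under 0.05 and more than 2-fold. SE are those of the fit. Differences between siRNA effects were contrasts of contrasts. Slides 1 to 3 held the 48 and 96 h arrays and slide 4 those of 24 h.

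Accessions named 31104 probes through a GRCh38.p14 table, without coordinates of genes, since 14 array headers name hg19 and 15 no build. From each list, up to 4 called genes per direction with the largest change at 48 or 96 h in growth media could be named, and any of a list of up to 8. Alternatives were 75th percentile scaling, normexp (offset 50), other filters, a mean over probes, the methods' t-test, slide and replicate blocks, fewer arrays, no fold threshold and each array left out. The fit was tested on simulated data. The number of arrays limits the precision. The genes most like LMNB1 are not reported here.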

Additional observations from a re-analysis of the deposited data

Results flagged for a closer look

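The difference between 2 siRNA effects passed the limma test and the 2-fold threshold for 15 results, given as differences of log2 changes. Of all tested genes 20.6% and 22.9% did so for 48 and 96 h against 24 h. Between media 17.2% did so at 48 h and 12.5% at 96 h. Relative to 24 h in growth media, the effect at 48 h was higher for DES (1.72), NES (1.30) and SYNC (1.58) and lower for LMNB1 (-2.81) and LMNB2 (-1.99). In a limma fit of only those arrays DES and NES did not pass (adjusted p = 0.0668 and 0.0609). The effect at 96 h relative to 24 h was higher for DES (1.56), NES (1.70) and SYNC (1.29) and lower for LMNB1 (-4.13) and LMNB2 (-2.56). In these results against 24 h, time cannot be told apart from confluence, slide and scan. Relative to growth media, the effect in differentiation media at 48 h was higher for LMNB1 (3.15) and LMNB2 (1.64). At 96 h it was higher for LMNB1 (2.35) and LMNB2 (1.05) and lower for NES (-1.35). Groups of 2 or 3 arrays are too small for a test of single arrays that lie apart.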

How the results depend on the processing

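No called change of a member turned its direction under any alternative, and of 2800 changes of single members recomputed under alternatives, 2724 stayed on their side of the threshold, 14 lost their call and 62 gained one. Among the 2724, 35 that were uncalled both times differed in sign. The uncalled LMNA change at 48 h in differentiation media ran from -0.18 to 0.46, with p under 0.05 in each setting by limma or the methods' t-test. Without the fold threshold the members called after ZNF148 siRNA were 5 at 24 h, 7 at 48 h in growth media, and 7 and 7 at 48 and 96 h in differentiation media. For differentiation against growth media they were then 4 and 7 with nontargeting siRNA at 48 and 96 h and 3 and 3 with ZNF148 siRNA. For 96 against 48 h they were 6 with nontargeting siRNA and 4 with ZNF148 siRNA in differentiation media, and 4 with ZNF148 siRNA in growth media. For siRNA effects they were 2 (96 against 48 h) and 5 (between media at 96 h). With normexp the count for 96 against 48 h was 0 with nontargeting siRNA in differentiation media and 0 with ZNF148 siRNA in growth media, the latter also 0 with slide as a random block. The siRNA effect at 48 h against 24 h had 3 calls with only the arrays of the comparison, and that at 96 h against 48 h had 1 with 75th percentile scaling, 1 with normexp and 1 with only its arrays. The cause was not tested. DES at 48 h in growth media missed the threshold by the methods' t-test after adjustment (0.0785), which otherwise gave the same counts of members after ZNF148 siRNA and was not run on differences between effects. Scaling to the 75th percentile moved the median of all genes at 48 h in differentiation media from -0.05 to 0.06.

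Leaving out single arrays gave 2 to 4 calls between media with nontargeting siRNA at 48 h and 0 to 1 with ZNF148 siRNA at 96 h. It gave 0 to 1 for 96 against 48 h with nontargeting siRNA in differentiation media and with ZNF148 siRNA in either medium, and 0 to 1 for the siRNA effect at 96 h against 48 h. With replicate number as a block no call of a member changed, so the counts stayed at 2, 4, 5, 4 and 2 after ZNF148 siRNA. The numbers are those of the sample titles, and the descriptions of 1 group (ZNF148 siRNA at 48 h in growth media) number its replicates otherwise. No pairing by these numbers was seen, as same-numbered arrays of 2 groups correlated between -0.15 and 0.12. Groups of 2 or 3 arrays cannot exclude a pairing, so it remains unknown.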
